A study of Arabidopsis thaliana with 8 samples.

Results

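HY5 (AT5G11260), its paralogue HYH (AT3G17609) and the G-box binding factors GBF1 (AT4G36730), GBF2 (AT4G01120) and GBF3 (AT2G46270) are basic leucine zipper (bZIP) transcription factors. They were taken as 5 named genes out of 27444 nuclear protein-coding genes, and every peak whose summit lay in one of them or within 3000 bp of it was described. The peaks are those of CONSTANS (CO), a B-box protein that promotes flowering in long days, mapped with an anti-CO antibody by chromatin immunoprecipitation and sequencing (ChIP-seq). The immunoprecipitated chromatin came from 35S:CO seedlings, which overexpress CO from a constitutive viral promoter, and from seedlings of the co-10 mutant as the control. Plants of both genotypes were raised under long days to an age of 7 days and crosslinked alike, with 1% formaldehyde for 20 min and 1 mM disuccinimidyl glutarate for 10 min. Each genotype had 2 immunoprecipitates and 2 inputs, but only 3 peak lists were used here (35S:CO, co-10 and a filtered subset of 35S:CO), none of them per replicate. No value below therefore has a replicate check. CO was overproduced throughout the plant, which limits what its peaks say about CO at its native level.

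HY5 accumulates in the light and promotes seedling de-etiolation. In the dark it is degraded through the ubiquitin ligase formed by COP1 and the SPA proteins, which also targets CO. HYH is the nearest relative of HY5 and overlaps with it in function. GBF1, GBF2 and GBF3 belong to another branch of the bZIP family and bind the G-box, an element common in light-regulated promoters that HY5 also recognises. The peaks therefore concern the genes that encode these factors, not the sites where the factors themselves bind.

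Peaks in 35S:CO lay at HYH, HY5 and GBF3, and none lay at GBF1 or GBF2. The filtered list held 4 summits near the 5 genes, 1 at HYH, 1 at HY5 and 2 at GBF3. The same 4 peaks stood in the unfiltered 35S:CO list, with the same values. Thus 3 of the 5 genes had a summit within 3000 bp in either list, where 19.2% of all coding genes had one in the filtered list and 19.3% in the 35S:CO list. In the co-10 list none of the 5 genes had a summit, against 0.619% of all coding genes. With a limit of 1000 bp the count stayed at 3 of 5, where 11.2% of all coding genes had a filtered summit.

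The HYH peak was the strongest and the broadest of the 4. It spanned chr3:6023371-6024300 (TAIR10), a width of 930 bp, with its summit at 6023752. The authors' fold enrichment over background was 9.93, with a −log10 q of 31.3. The number of fragments over the summit (the pileup) and the number expected there (the background) were recovered from these deposited values, as 46 and 3.73. The exact Poisson 95% interval of the pileup was 33.7 to 61.4 fragments, which at that background is a fold enrichment of 7.32 to 13.2. These intervals cover counting error only. They do not allow for the summit being picked as the highest point of a called peak. Among the 3210 nuclear filtered peaks, 80.4% had a lower fold enrichment and 90.6% were narrower. The summit lay outside HYH but within 100 bp of one end of the annotated gene, and HYH was the only coding gene within 1000 bp of it. IAA31, an Aux/IAA gene of auxin signalling, and RBL14, a rhomboid-like gene, lay within 3000 bp of the summit, as did AT3G17620.

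The HY5 peak was of middling strength. It spanned chr5:3594852-3595291, 440 bp, with its summit at 3595096, a fold enrichment of 5.16 and a −log10 q of 10.2. The pileup was 25 fragments (95% interval 16.2 to 36.9) over a background of 4.04, which corresponds to a fold enrichment of 3.41 to 7.52. In the filtered list 46.5% of the nuclear peaks had a lower fold enrichment and 43.0% were narrower. The background at HY5 was on the high side, since 91.7% of the filtered peaks had a lower one. The summit lay between HY5 and the neighbouring gene OCP3, which encodes a homeodomain protein of defence responses. It was within 100 bp of an end of HY5, the nearest coding gene, and within 1000 bp of OCP3 as well. A peak cannot be assigned to one of these 2 genes from its position alone.

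**Figure D1:**
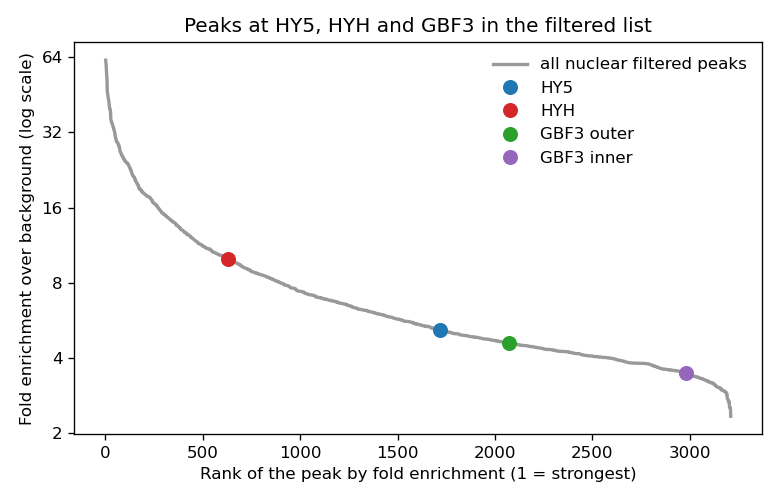
Fold enrichment (log scale) of the 3210 nuclear filtered peaks of 35S:CO against their rank, with the 4 peaks at HYH, HY5 and GBF3 marked. HYH is at rank 628, HY5 at 1716, and the GBF3 peaks at 2073 (outer) and 2979 (inner).

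GBF3 had 2 weak peaks side by side at one end of the gene. The outer one spanned chr2:18999476-18999814, 339 bp, with its summit at 18999591 and a fold enrichment of 4.58 at a −log10 q of 6.42. Its pileup was 17 fragments (95% interval 9.9 to 27.2) over a background of 2.93. This summit lay outside GBF3, the nearest coding gene, within 1000 bp of it. It was also within 1000 bp of LRB1, which encodes a BTB-domain protein of red light signalling. The inner peak spanned chr2:18999965-19000261, 297 bp, with its summit at 19000191 and a fold enrichment of 3.47 at a −log10 q of 3.23. Its pileup was 12 fragments (95% interval 6.2 to 21.0) over a background of 2.75. That summit was the only one of the 4 inside a gene, within 100 bp of an end of GBF3. TRIP-1, a coding gene that overlaps GBF3 in the annotation, and LRB1 also lay within 3000 bp of it.

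The inner GBF3 peak was near the lower limit of the list. In the filtered list 7.20% of the nuclear peaks had a lower fold enrichment, and none was narrower than 297 bp, a width that 192 peaks had. For the outer peak the share with a lower fold enrichment was 35.1%. The 2 peaks were separated by 150 bp, and their summits by 600 bp. A neighbour at that gap or nearer was present for 91 of the 3210 nuclear filtered peaks (2.83%). At least 2 filtered summits within 3000 bp, as at GBF3, were found for 3.82% of all coding genes. At a −log10 q of at least 10, GBF3 had no peak and the count was 2 of 5, where 10.7% of all coding genes had such a peak.

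By fold enrichment the order was HYH, HY5, the outer and then the inner GBF3 peak. The counting interval of HYH (7.32 to 13.2) overlapped narrowly with that of HY5 (3.41 to 7.52). It lay above those of both GBF3 peaks, which were 2.77 to 7.17 and 1.92 to 5.86. The intervals of HY5 and the GBF3 peaks overlapped widely, so the order of these 3 is not settled by them. Differences between peaks were not tested, and the intervals take the background as exact. The variation between the 2 immunoprecipitates is not part of these intervals. In pileup alone, HYH had 46 fragments, and the others 12 to 25.

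**Figure D2:**
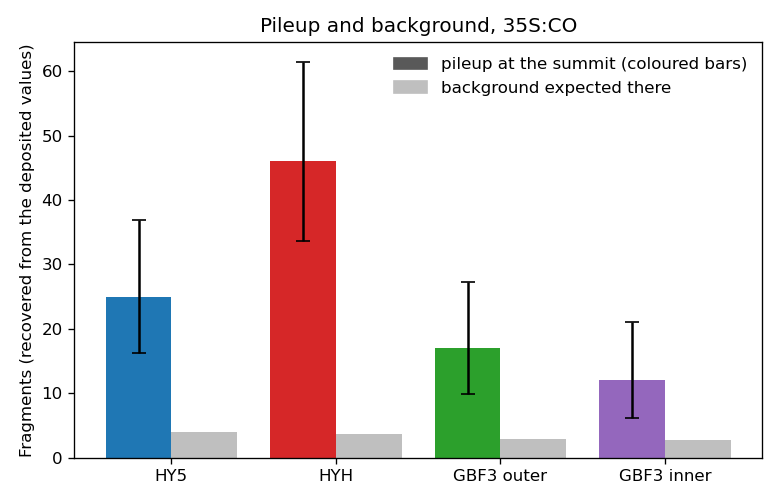
Pileup at the summit (coloured bars, with exact Poisson 95% intervals) and background expected there (grey bars), in fragments, for each of the 4 peaks of 35S:CO. HYH stands at 46 fragments against 25 at HY5, 17 and 12 at GBF3, while the backgrounds are all between 2.75 and 4.04.

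Position and shape were compared after the values had been seen. The summits of 3 of the 4 peaks, at HYH, HY5 and the inner GBF3 position, lay within 100 bp of an end of the gene. Of all nuclear filtered summits, 21.6% lay that near to an end of a coding gene. Whether the end is the transcription start or the 3′ end was not read, because the gene table used has no strand. The HYH summit was nearer to the low-coordinate side of its peak, with 381 bp on that side and 548 bp on the other. HY5 had 244 and 195 bp on these sides. The outer GBF3 peak had 115 and 223 bp, and the inner one 226 and 70 bp, so both GBF3 peaks reached farther on the side that faced the other.

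**Figure D3:**
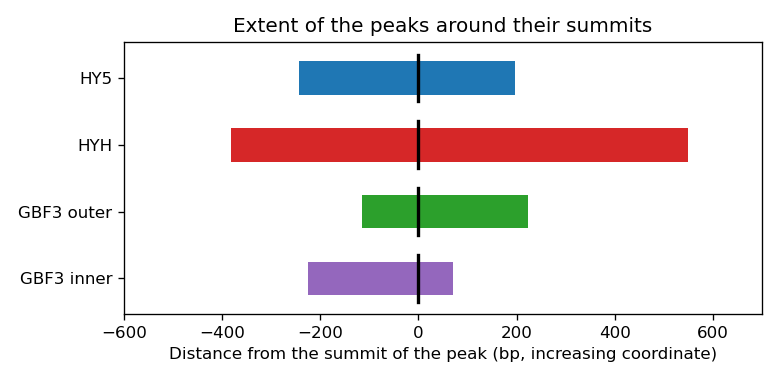
Extent of each peak in bp on either side of its summit (black line at 0), along increasing coordinates. The HYH peak covers 930 bp, HY5 440 bp and the GBF3 peaks 339 and 297 bp.

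GBF1 and GBF2 had no summit in any of the 3 lists. At GBF2 the nearest filtered peak was outside the limit, between 5 and 10 kb from the gene. It spanned chr4:475094-476152 with its summit at 475393 and a fold enrichment of 17.7, and its nearest coding gene was AT4G01090. The nearest filtered peak to GBF1 was between 50 and 100 kb away, at chr4:17373275-17373782, with a fold enrichment of 13.0. It lay nearest to BLH2. GBF1 overlaps the neighbouring gene HVA22K in the annotation. The weakest nuclear peak in the filtered list had a fold enrichment of 2.33, and enrichment below what the caller admitted cannot be read from a peak list. GBF1 and GBF2 are therefore without a called peak, not shown to be without CO. The nearest summits beyond the limit were 20 to 50 kb from HYH, with a fold enrichment of 12.5, and 50 to 100 kb from HY5, with 9.78. At GBF3 the next summit was 5 to 10 kb away, with 11.4, nearest to BAG6.

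No co-10 summit lay within 100 kb of any of the 5 genes. The co-10 list held only 312 nuclear peaks, and the share of all coding genes that far from one was not computed. This distance is therefore not read as a trait of the 5 genes. The filtered list left out 77 of the 3287 nuclear 35S:CO peaks (2.34%), each of which overlapped a co-10 peak, and none that it kept did so. That a filtered peak has no overlapping co-10 peak therefore follows from the list. In the unfiltered 35S:CO list the 5 genes had the same 4 summits, so the filter had removed none of theirs. Over nuclear peaks the background had a median of 3.07 fragments for 35S:CO and 1.09 for co-10, so the co-10 list rests on a lower one. At 47 overlapping pairs of peaks with backgrounds under 10, the median ratio of backgrounds, co-10 over 35S:CO, was 0.53. Scaled by this ratio, the HYH peak would have 24.4 fragments over 1.98 and a −log10 p of 18.6. The weakest nuclear co-10 peak has 4.28. HY5, at 7.17, and the outer GBF3 peak, at 5.25, would also pass that level. The inner GBF3 peak, at 3.10, would not, so at this ratio its absence from the co-10 list is not informative. The ratio is one of backgrounds recovered at peaks, not a measured sequencing depth. With the ratio of the median backgrounds, 0.356, HYH (13.0) and HY5 (5.55) would still pass, and the GBF3 peaks (3.97 and 2.48) would not. All these values scale the recovered pileups alone, and their counting intervals were not carried through. They therefore do not show that any of these peaks would have been called in co-10.

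Genes that surround HY5 and the GBFs in their pathways were set beside them, chosen with earlier results of these data known. The closest relatives of the GBFs, bZIP16 and bZIP68, had no filtered summit within 3000 bp, and neither did GBF4, a bZIP protein of another group. Of all coding genes only 19.2% had one, so absence at these few genes is not read as a trait of theirs. The strongest peak per gene had a median fold enrichment of 5.16 over HYH, HY5 and GBF3, and of 6.15 over all 5257 coding genes with a filtered summit. HYH, at 9.93, exceeded 74.9% of those genes, HY5 38.7% and GBF3 28.3%. Of 14 regulators and partners of HY5, 8 had a filtered summit, with a median of 16.6 (5.60 to 61.3). The 4 strongest were at BBX28 (61.3), BBX25 (29.3), SPA3 (24.3) and SPA1 (20.9). Of these summits only that of SPA3 lay inside the gene. For the listed genes any summit within 3000 bp was taken, whether or not another gene was nearer. BBX28 and BBX25 are B-box proteins that hold back HY5 activity, and SPA1 and SPA3 are partners of COP1. The other 4 were BBX24 (12.2), SPA4 (8.67), COP1 (6.99) and BBX22 (5.60). The 6 without a filtered summit were BBX20, BBX21, BBX23, SPA2, DET1 and UVR8, so the B-box genes and the SPA genes of the list both included genes with and without a summit.

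Of 17 genes taken as textbook targets of HY5 or the GBFs, 12 had a filtered summit, with a median fold enrichment of 9.77 (3.74 to 46.2). The strongest were at ELIP1 (46.2), an early light-induced protein gene, CAT2 (33.2), a catalase gene, RBCS1A (19.0), for a Rubisco small subunit, and RUP2 (17.8), a repressor of UV-B signalling. MYB12 (11.0), RUP1 (10.3), ELIP2 (9.27) and NIA2 (6.35) followed. F3H (5.45), FLS1 (5.41), CHS (4.89) and CHI (3.74) were below the median of 6.15 over all coding genes with a filtered summit. The 5 without a filtered summit were MYB111, ADH1, NRT2.1, FHY1 and FHL. No gene of these lists had a co-10 summit, but only 0.619% of all coding genes had one, so this is the usual outcome. The 3 of 5 bZIP genes and the shares of the other lists, 57.1% and 70.6%, stand beside the same background of 19.2%. No test was made of any of these counts, and the lists were not matched to the coding genes at large in length or neighbours.

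**Figure D4:**
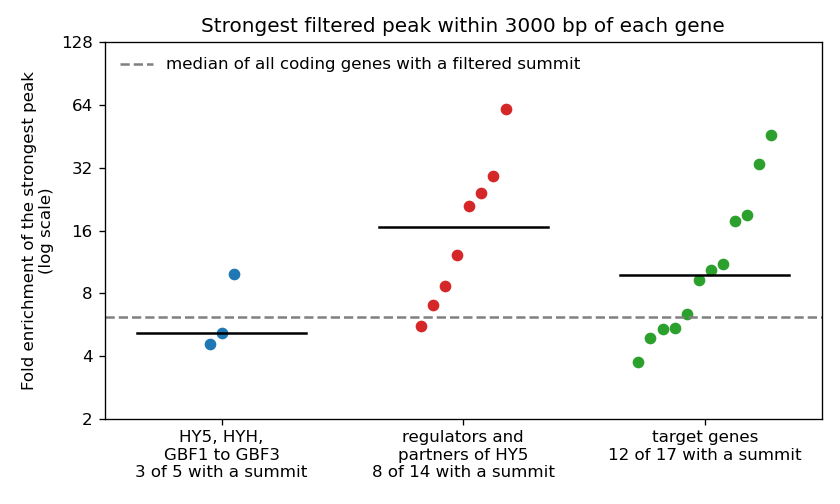
Fold enrichment (log scale) of the strongest filtered peak within 3000 bp of each gene, for the bZIP genes, the regulators and partners of HY5, and the target genes; black lines are medians over the genes with a summit. HYH, HY5 and GBF3 lie between 4.58 and 9.93, around the dashed median of all coding genes with a summit, 6.15.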

How the data were processed

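ChIP-seq peaks were analysed from 8 samples in 4 groups of 2, described by the labels. Per the submitters' processing notes, Bowtie, MACS2 and the TAIR10 build were used; versions and settings are not given in the sources used here. Peak names carry the word "both", so the lists were treated as called on pooled replicates. The fold enrichment (a ratio), the −log10 p-value and −log10 q-value of each peak, the score and the summit offset are as deposited by the authors; the score was not used. Depth per sample is unknown.

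Gene names and neighbours came from a RefSeq gene table of TAIR10.1, in which all 5 genes and all list genes matched by locus. Since its assembly differs in name from that of the peaks, distances are given in classes. As a check, 38.2% of filtered nuclear summits lay in coding genes, and 21.6% within 100 bp of a gene end, against 59.1% and 8.47% after a shift of -5000 bp and 58.7% and 9.56% after 5000 bp. Promoter and peak sequence were not used here, so the planned motif search was not run.

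Pileup and background were solved from fold enrichment, taken as (pileup + 1) / (background + 1), and the Poisson p-value. All 3287 nuclear 35S:CO peaks and 311 of 312 co-10 peaks were solved within 0.001. Assignment and recovery were tested on simulated data. Python 3.11.15, NumPy 2.4.6, pandas 2.3.3 and SciPy 1.17.1 were used. The genes and lists were chosen with earlier results of these data known. Named were all 5 genes, the genes at their peaks, bZIP16, bZIP68, and up to 4 genes per other list by strongest peak; the neighbours and the other list genes were named after their values were seen.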

Additional observations from a re-analysis of the deposited data

How the results depend on the processing

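No paired analysis was possible because no list belongs to a single replicate, which also kept replicates from being left out in turn. Of 30 alternatives, 27 kept the count within 1.5 times or the fold enrichment unchanged. Some of the 27 could not have moved. The filtered list is a subset of the 35S:CO list with the same values, and HY5 and HYH have 1 peak each. A stricter rule cannot change a count already at 0, as for bZIP16 and bZIP68 and for a larger required overlap with co-10. Looking for a co-10 peak within 1000 bp was a wider rule that could have raised the count, which stayed at 0. The 27 included flanks of 500, 1000 and 5000 bp, overlap in place of the summit and the nearest gene only. They also included a −log10 q of at least 5 and the value in the 35S:CO list. Kept does not mean unchanged. The peaks near the bZIP genes fell from 4 to 3 at a flank of 500 bp and at a −log10 q of at least 5. The target genes fell from 12 to 11 at a flank of 1000 bp. At a −log10 q of at least 10, the bZIP genes fell from 3 to 2 and the target genes from 12 to 8. Both counts were taken as kept, exactly at the limit of 1.5 times. Counting only summits inside the gene left 1 gene and 1 peak, both GBF3, while 2 peaks, at HYH and HY5, reached a −log10 q of 10. Both alternatives keep fewer peaks by construction. The lower co-10 background limits what absence in co-10 means for the inner GBF3 peak, and at the ratio of 0.356 for the outer one. For the other peaks it is not shown to be without effect, since the scaled counts leave out counting error.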
